A study of Mus musculus with 10 samples.

Results

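The genes described here are 37 genes that interferons are known to induce. They were taken by name from the 25579 genes for which RNA sequencing (RNA-seq) values were listed, and all 37 were found. RNA-seq had been performed on mouse bone marrow cells of 4 genotypes of Pax5, with 2 libraries per genotype: wild-type Pax5+/+ pro-B cells, Pax5+/- pro-B cells with 1 functional allele, Pax5 R31Q/- pro-B cells with 1 allele that codes for a substitution in the DNA-binding paired domain and 1 null allele, and Pax5 fl/fl Vav-Cre cells, called Pax5-/- here and labelled as progenitor cells. All mice were labelled C57BL/6 and all cells were sorted ex vivo. Pax5 is the transcription factor that commits lymphoid progenitors to the B cell lineage, and the study asked which genes lose their control by Pax5 when the R31Q substitution is present. Vav-Cre deletes in the entire hematopoietic system and not in B cells alone, so other blood cells of these mice also lack Pax5. The R31Q allele was made by genome editing in zygotes of mixed C57BL/6 and CBA background, and mice carrying it were crossed back to C57BL/6 before they were used. Pro-B cells were sorted by surface markers, and the gate used for the Pax5-/- cells is not given in the sources used here. Peaks of Pax5 binding came from 2 further libraries of cultured pro-B cells, 1 of Rag2-/- and 1 of Pax5 R31Q/- genotype.

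Type I interferons bind the receptor chains Ifnar1 and Ifnar2, and the receptor activates transcription factors that include Stat2. Stat2 and Irf9 are subunits of a complex called ISGF3, which binds the interferon-stimulated response element (ISRE) in the promoters of its target genes. Interferon-gamma uses another receptor and acts mainly through the gamma-activated site (GAS), and Irf1 extends that response. The induced proteins sense foreign nucleic acids, degrade or sequester viral RNA, block the release of virus particles and dampen the signal again. Many of them are also made at a low level in unstimulated blood cells.

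The ISRE core was searched as GAAANNGAAA, with TTTCNNTTTC on the other strand, from 250 bases before to 50 bases after the start site in RefSeq promoters (GRCm38.p6). A promoter entry existed for 28 of the 37 genes, and 15 of these (53.6%) held the core, against 3.99% of the 27025 genes with an entry. The GAS core, TTCNNNGAA on either strand, was found for 9 of the 28 genes (32.1%) and for 9.55% of all genes. In 12 of the 15 genes an ISRE core lay before the start site, and in Ddx58, Ifih1 and Eif2ak2 only after it. The 9 genes without an entry were Dhx58, Zbp1, Oas2, Mx1, Mx2, Usp18, Parp9, Parp14 and Rtp4. The stretches below hold the ISRE cores of 8 genes that recur in the results, in the direction of transcription, with the cores in capitals. They are shown because they are the known binding element of the pathway and because their number and spacing differ between the genes. Adjacent cores can share 4 bases and are then printed as a continuous run of capitals.
Isg15: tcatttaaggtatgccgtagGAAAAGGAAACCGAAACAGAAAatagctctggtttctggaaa
Bst2: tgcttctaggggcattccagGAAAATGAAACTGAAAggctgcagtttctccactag
Oas1a: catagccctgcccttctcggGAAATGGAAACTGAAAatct
Gbp3: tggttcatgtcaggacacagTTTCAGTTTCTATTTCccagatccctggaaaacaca
Ifit1: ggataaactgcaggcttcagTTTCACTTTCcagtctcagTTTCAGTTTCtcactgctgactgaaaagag
Oas3: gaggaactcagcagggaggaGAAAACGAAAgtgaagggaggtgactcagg
Igtp: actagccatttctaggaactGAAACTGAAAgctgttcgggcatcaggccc
Rsad2: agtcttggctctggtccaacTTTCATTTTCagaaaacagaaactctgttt

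These stretches lie in GRCm38.p6 at chr4:156200855-156200916 on the minus strand for Isg15, chr8:71537567-71537622 on the minus strand for Bst2, chr5:120907526-120907565 on the minus strand for Oas1a and chr3:142559979-142560034 on the plus strand for Gbp3. Those of the other 4 genes lie at chr19:34640765-34640833 on the plus strand for Ifit1, chr5:120777705-120777754 on the minus strand for Oas3, chr11:58199502-58199551 on the plus strand for Igtp and chr12:26456543-26456592 on the minus strand for Rsad2. Isg15 carried 3 overlapping cores that begin 78, 72 and 66 bases before its start site. Bst2, Oas1a and Gbp3 carried 2 overlapping cores each, Ifit1 held 2 separate ones, and Oas3, Igtp and Rsad2 held 1. A match to these letters describes the sequence and does not show that a factor binds there.

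Values are TPM, read counts divided by gene length and scaled to the same total in every library. The depth recovered from the TPM values was between 21625880 and 34488572 reads on genes per library, and Pax5-/- library 1 was the shallowest. Every one of the 37 genes was above 1 TPM in all 8 libraries, so all of them entered the test. The lowest value was 2.20 TPM, for Mx1 in Pax5 R31Q/- library 1. The lowest recovered read count was 51, for Ifit3 in Pax5+/- library 1. Pax5 itself was at 418 and 444 TPM in Pax5+/+, 272 and 287 in Pax5+/-, 306 and 293 in Pax5 R31Q/- and 1242 and 1409 in Pax5-/- libraries. Cre removes only the floxed part of the gene, so a value over the whole gene does not check the Pax5-/- label. The 2 Pax5-/- libraries stood apart from the rest and from each other. Of 10 pro-B markers, 7 were lower in them than in Pax5+/+ libraries and 1 was higher (limma). Of 12 markers of plasmacytoid dendritic cells, which are potent interferon producers, all 12 were higher in Pax5-/- library 2 than in library 1, and of 10 myeloid markers all 10 were higher in library 1. In bulk RNA a change in the share of a cell type and a change in RNA per cell cannot be told apart. The labels do not say whether libraries came from separate mice, so the tests measure the spread between libraries.

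**Figure D1:**
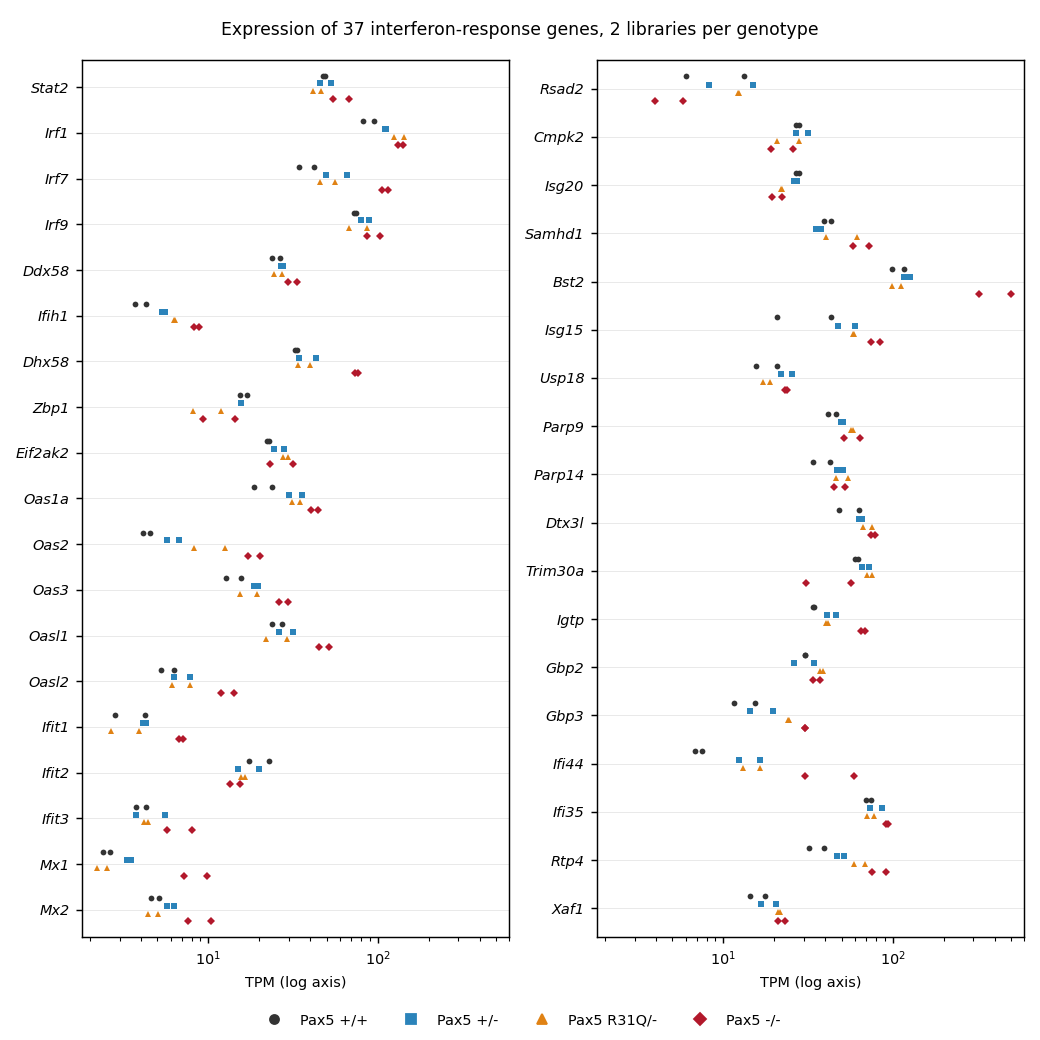
TPM (log axis) of each of the 37 interferon-response genes in every library, with 2 points for each of the 4 genotypes. For Bst2, Dhx58, Irf7 and Igtp both Pax5-/- points lie to the right of the other 6, whereas for Rsad2 both lie to the left.

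The 37 genes as a group were most abundant in Pax5-/- cells. Their summed TPM was 1189 and 1067 in Pax5+/+, 1333 and 1339 in Pax5+/-, 1433 and 1289 in Pax5 R31Q/- and 1834 and 2138 in Pax5-/- libraries. The 2 Pax5+/+ libraries had the lowest sums and the 2 Pax5-/- libraries the highest. The 5 genes with the highest mean over all libraries were Bst2, Irf1, Irf9, Ifi35 and Dtx3l. Bst2 (tetherin, which holds budding virus particles at the cell surface) was at 118 and 98.7 TPM in Pax5+/+, 117 and 127 in Pax5+/-, 99.8 and 112 in Pax5 R31Q/- and 325 and 499 in Pax5-/- libraries. The first 3 genotypes overlapped, and both Pax5-/- libraries lay far above them. Irf1, a transcription factor of the interferon-gamma response, was at 95.0 and 82.0 TPM in Pax5+/+, 110.4 and 113 in Pax5+/-, 143 and 126 in Pax5 R31Q/- and 132 and 142 in Pax5-/- libraries. Its R31Q/- and -/- libraries overlapped, and all 6 mutant libraries were above both wild-type ones. Irf9, the DNA-binding subunit of ISGF3, was at 74.7 and 72.6 TPM in Pax5+/+, 88.8 and 79.4 in Pax5+/-, 87.1 and 68.0 in Pax5 R31Q/- and 86.1 and 103 in Pax5-/- libraries. Ifi35, an interferon-induced leucine zipper protein, was at 74.2 and 69.4, 86.4 and 73.2, 78.0 and 71.1 and 91.2 and 94.1 TPM in the same order of genotypes. Both Pax5-/- libraries were highest for Ifi35 and the other 3 genotypes overlapped. Dtx3l, a ubiquitin ligase that works with Parp9, was at 63.2 and 48.5, 63.1 and 66.0, 75.8 and 67.0 and 74.9 and 78.6 TPM in that order, with the lowest value in Pax5+/+ library 2.

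In the comparison of Pax5-/- with Pax5+/+ cells, 20 of the 37 genes (54.1%) rose at an adjusted p-value below 0.05 (limma on log2(TPM + 1), Benjamini-Hochberg over 13436 genes), where 16.2% of all genes tested rose. Isg20, a 3'-5' exonuclease of single-stranded RNA, was the only 1 of the 37 to fall (2.70%), where 19.7% of all genes fell. The median log2 fold change was 0.64 for the 37 genes and -0.11 for all genes tested. Both Pax5-/- libraries were above both Pax5+/+ libraries for 31 of the 37 genes, against 27.2% of all genes, and both were below for Zbp1, Ifit2, Rsad2, Cmpk2, Isg20 and Trim30a. With additional limits of more than a 3-fold difference, taken here on TPM + 1, and a mean above 5 TPM, Ifi44, Bst2 and Oas2 rose, 3 of the 37 genes, where 3.07% of all genes did. With the fold taken as the ratio of mean TPM, Mx1 passed as well, at a ratio of 3.37, which made 4 of the 37 genes, where 3.63% of all genes did.

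**Figure D2:**
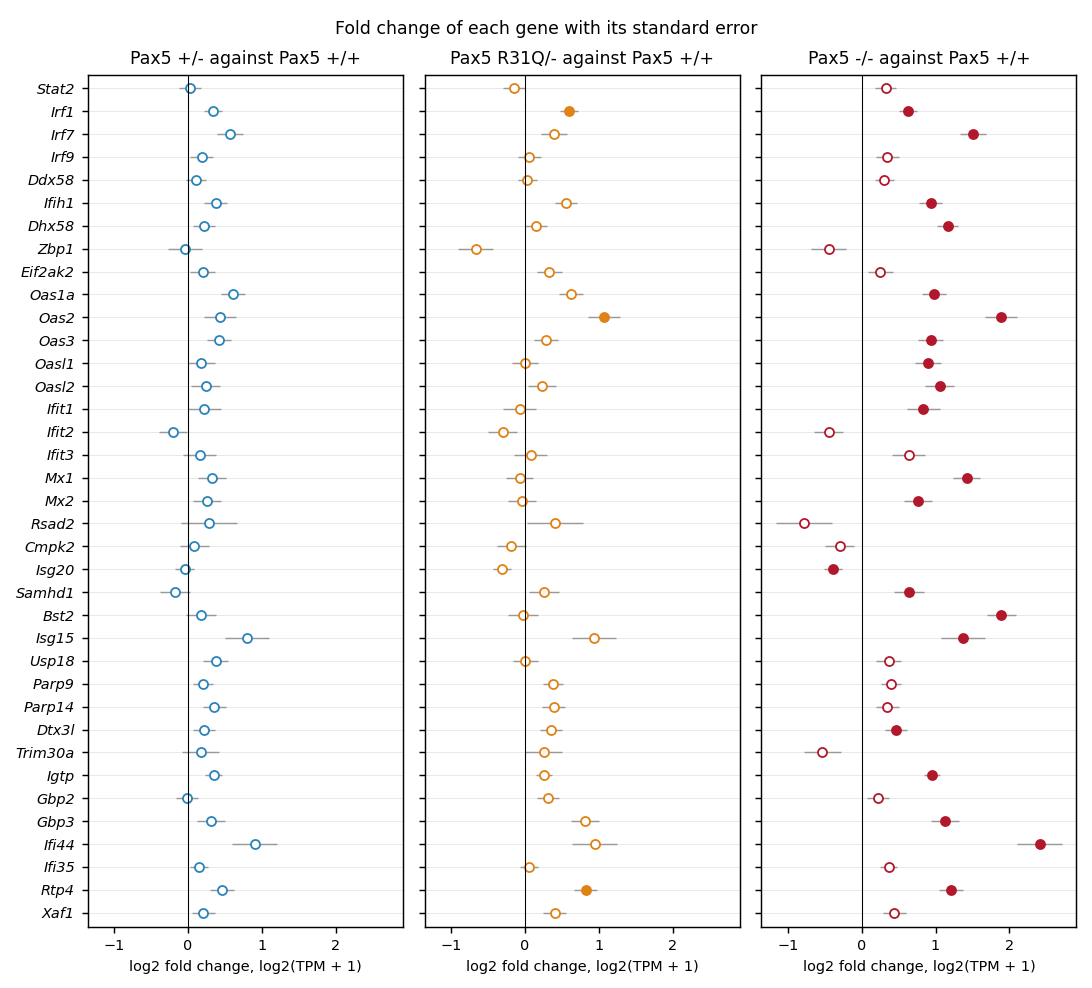
Difference of each gene from Pax5+/+ as log2 fold change of TPM + 1, with its standard error as the bar, in Pax5+/-, Pax5 R31Q/- and Pax5-/- cells. Filled points passed the adjusted p-value of 0.05 in limma: 0 in Pax5+/-, 3 in Pax5 R31Q/- and 21 in Pax5-/- cells.

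Among the signaling factors, Irf7, the factor that drives transcription of type I interferon genes, rose in Pax5-/- cells and Stat2 and Irf9 did not pass. Irf7 was at 34.6 and 42.2 TPM in Pax5+/+ and at 116 and 106 TPM in Pax5-/- libraries, a log2 fold change of 1.51 ± 0.18 (SE, adjusted p = 0.000573, limma). Irf1 also rose, by 0.63 ± 0.12 (adjusted p = 0.00560, limma). Stat2 had a log2 fold change of 0.32 (adjusted p = 0.124) and Irf9 of 0.35 (adjusted p = 0.113, limma). The annotated interval of Stat2 overlaps Apof on the same strand.

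All 5 genes of the OAS family rose in Pax5-/- cells. Oas1a, Oas2 and Oas3 code for synthetases of 2'-5' oligoadenylates that activate RNase L, and Oasl1 and Oasl2 for related proteins. Oas2 was at 4.14 and 4.54 TPM in Pax5+/+ and at 17.2 and 20.2 TPM in Pax5-/- libraries. Its log2 fold change was 1.88 ± 0.22 (adjusted p = 0.000530, limma), a ratio of mean TPM of 4.32. Oasl2 was at 5.25 and 6.27 TPM in Pax5+/+ and at 11.9 and 14.2 TPM in Pax5-/- libraries, a log2 fold change of 1.05 ± 0.19 (adjusted p = 0.00484, limma). Oas1a, Oas3 and Oasl1 had log2 fold changes of 0.97, 0.94 and 0.90. None of the 5 genes had overlapping values in these genotypes. Oas1a belongs to a tandem family of near-identical copies. Only uniquely mapping reads were counted, which leaves out reads that match several copies, so its level is less certain.

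Of the RNA sensors, 2 of 5 rose. Dhx58 (LGP2), which modulates the other sensors, was at 33.3 and 32.6 TPM in Pax5+/+ and at 76.9 and 73.1 TPM in Pax5-/- libraries, a log2 fold change of 1.16 ± 0.15 (adjusted p = 0.000830, limma). Ifih1 (MDA5), a sensor of long double-stranded RNA, rose by 0.93 from 4.27 and 3.71 TPM to 8.20 and 8.85 TPM. Ddx58 (RIG-I), Eif2ak2 (the RNA-activated kinase PKR) and Zbp1 (a sensor of Z-form nucleic acid) had log2 fold changes of 0.31, 0.25 and -0.45 and did not pass. Within this class the 2 Pax5-/- libraries of Zbp1, at 14.3 and 9.36 TPM, differed from each other more than those of Dhx58.

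Among 10 genes of antiviral effectors, 5 rose and Isg20 fell. Bst2 had a log2 fold change of 1.89 ± 0.20 (adjusted p = 0.000380, limma) and a ratio of mean TPM of 3.81. Mx1, a dynamin-like GTPase that traps viral nucleocapsids and is known to be defective in C57BL/6 mice, was at 2.63 and 2.41 TPM in Pax5+/+ and at 7.24 and 9.78 TPM in Pax5-/- libraries. It rose by 1.42 ± 0.19 (adjusted p = 0.00102, limma). Its neighbor Mx2 rose by 0.77, and Samhd1, which hydrolyzes deoxynucleotides, by 0.64 (adjusted p = 0.0417, limma). The call of Samhd1 was lost in 9 of 17 alternative settings. Ifit1, which binds the 5' ends of foreign RNA, rose by 0.83, from 4.22 and 2.81 TPM to 7.14 and 6.76 TPM. Its call was lost in 4 of 17 alternative settings, among them without Pax5+/+ library 2 (adjusted p = 0.108) or Pax5-/- library 1 (adjusted p = 0.0689, limma), and that of Mx2 in 2, among them without Pax5+/+ library 2 (adjusted p = 0.0760, limma). The neighbors of Ifit1 on chromosome 19 did not pass, with log2 fold changes of 0.64 for Ifit3 and -0.45 for Ifit2. Rsad2 (viperin, which makes a chain-terminating nucleotide) was at 13.2 and 6.00 TPM in Pax5+/+ and at 5.77 and 3.96 TPM in Pax5-/- libraries, a log2 fold change of -0.78 that did not pass (adjusted p = 0.145, limma). Cmpk2, a nucleotide kinase gene 12.7 kb from Rsad2, had a log2 fold change of -0.30. Isg20 was at 26.9 and 28.2 TPM in Pax5+/+ and at 22.2 and 19.5 TPM in Pax5-/- libraries, a fall of 0.39 on the log2 scale (adjusted p = 0.0448, limma). This call was lost under median-ratio scaling (adjusted p = 0.139), quantile normalization (adjusted p = 0.205), and without any 1 library other than Pax5-/- library 1, where the adjusted p (limma) ranged from 0.0623 to 0.124.

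The ubiquitin-like modifier Isg15 rose, and the enzymes that handle it or modify proteins by ADP-ribose mostly did not pass. Isg15 was at 43.2 and 20.9 TPM in Pax5+/+ and at 84.1 and 74.9 TPM in Pax5-/- libraries, a log2 fold change of 1.37 ± 0.30 (adjusted p = 0.00958, limma). Its Pax5+/+ libraries differed 2.07-fold from each other, and without Pax5-/- library 1 its adjusted p was 0.0601. Dtx3l rose by 0.46 (adjusted p = 0.0424, limma), and this call was lost in 10 of 17 alternative settings. Without Pax5+/+ library 2 its log2 fold change was 0.27. Usp18, the protease that removes Isg15 and restrains Ifnar2, had a log2 fold change of 0.37, Parp9 of 0.40 and Parp14 of 0.35, and none of these passed. Dtx3l and Parp9 overlap on opposite strands, and reads of the pair cannot be told apart where the counting did not use strand. Trim30a, a member of the tripartite motif family, was at 62.4 and 59.8 TPM in Pax5+/+ and at 30.7 and 56.9 TPM in Pax5-/- libraries, which differed 1.85-fold from each other.

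Of the interferon-inducible GTPases, which attack the membranes around intracellular pathogens, Igtp and Gbp3 rose and Gbp2 did not pass. Igtp was at 34.3 and 33.8 TPM in Pax5+/+ and at 68.3 and 65.4 TPM in Pax5-/- libraries, a log2 fold change of 0.95 ± 0.11 (adjusted p = 0.000584, limma). Gbp3 was at 15.4 and 11.6 TPM in Pax5+/+ and at 30.4 and 30.5 TPM in Pax5-/- libraries, a log2 fold change of 1.13 ± 0.19 (adjusted p = 0.00306, limma). Gbp2, which lies 47.4 kb from Gbp3, had a log2 fold change of 0.22.

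Ifi44, an interferon-induced gene whose product is linked to reduced proliferation and antiviral defence, had the largest change of the 37 genes. It was at 7.49 and 6.82 TPM in Pax5+/+ and at 30.3 and 58.8 TPM in Pax5-/- libraries, a log2 fold change of 2.41 ± 0.30 (adjusted p = 0.000786, limma) and a ratio of mean TPM of 6.23. Rtp4, a chaperone of cell surface receptors, was at 39.6 and 31.9 TPM in Pax5+/+ and at 75.6 and 91.8 TPM in Pax5-/- libraries, a log2 fold change of 1.21 ± 0.16 (adjusted p = 0.000994, limma). Rtp4 overlaps Masp1 on the other strand, and reads of this pair likewise cannot be told apart without strand. Xaf1, a factor that promotes apoptosis, and Ifi35 had log2 fold changes of 0.44 and 0.36 and did not pass.

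Some markers of other cells also changed in Pax5-/- cells. Of the 12 plasmacytoid dendritic cell markers, 7 rose in Pax5-/- cells and Spib and Atp1b1 fell. The largest rises were those of Runx2 at 3.91, Cox6a2 at 3.68 and Siglech at 3.66 on the log2 scale. Siglech was at 11.7 and 3.37 TPM in Pax5+/+, at 1.72 and 2.64 TPM in Pax5+/-, at 0.694 and 1.33 TPM in Pax5 R31Q/- and at 54.4 and 158 TPM in Pax5-/- libraries. The summed TPM of the 12 markers was 1157 and 1133 in Pax5+/+, 1002 and 930 in Pax5+/-, 581 and 504 in Pax5 R31Q/- and 608 and 1072 in Pax5-/- libraries, most of it from Spib and Atp1b1 in the 3 pro-B genotypes but not in Pax5-/- libraries, and 0 of the 12 were at 0 in all libraries. Of the 9 myeloid markers tested, Csf1r rose and the list median was 0.87. Of the 37 genes, 23 were higher in Pax5-/- library 2, where the plasmacytoid markers were higher, than in library 1. The share of all genes tested that were higher in library 2 was not determined, so these counts have no background. Of the 20 that rose, 12 were higher in library 2. Among these 12, Ifi44 was 1.94-fold, Bst2, which is also a surface marker of plasmacytoid dendritic cells in mice, 1.54-fold, Mx2 1.36-fold, Mx1 1.35-fold, Samhd1 1.23-fold and Rtp4 1.21-fold higher in library 2. The other 8, Irf7, Dhx58, Oas1a, Oas3, Oasl1, Ifit1, Isg15 and Igtp, were between 0.87-fold and 0.96-fold in library 2 relative to library 1. Without Pax5-/- library 2, 19 of the 37 genes rose, with log2 fold changes of 1.58 for Bst2, 1.94 for Ifi44 and 1.57 for Irf7. Without library 1 it was also 19. The part of these cell types in the rises was not tested.

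**Figure D3:**
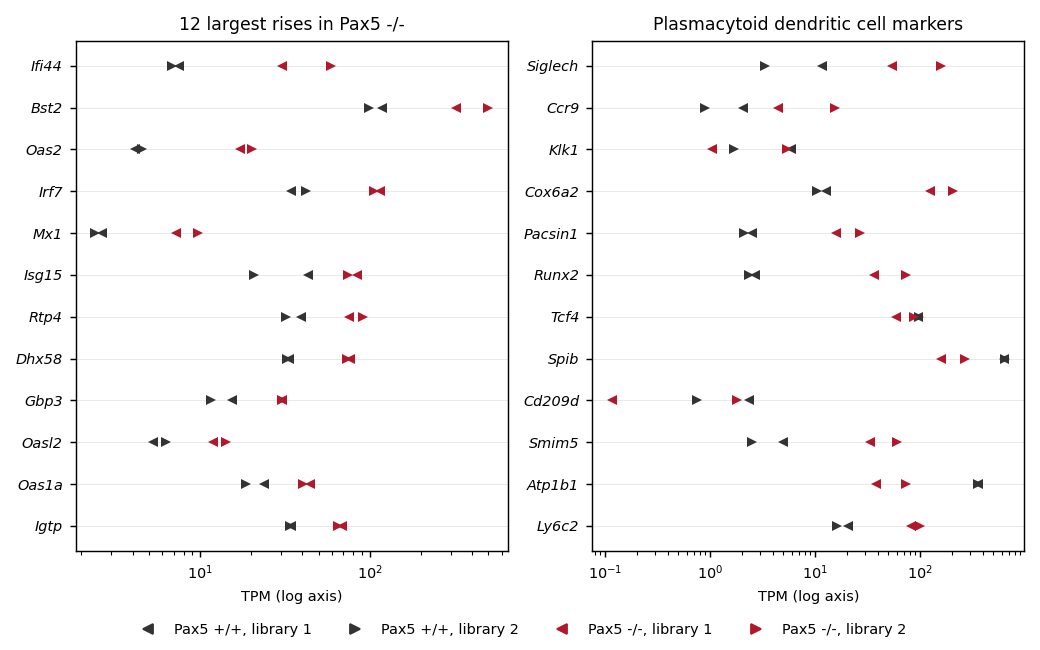
TPM (log axis) in the 2 Pax5+/+ and 2 Pax5-/- libraries for the 12 interferon-response genes with the largest rise in Pax5-/- cells, at left, and for 12 plasmacytoid dendritic cell markers, at right. Bst2 and Ifi44 follow the order of the markers between the Pax5-/- libraries, 325 and 499 TPM for Bst2, while the libraries nearly coincide for Gbp3 and Dhx58.

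In the comparison of Pax5 R31Q/- with Pax5+/+ pro-B cells, which addresses the effect of the substitution together with the loss of 1 allele, 3 of the 37 genes (8.11%) rose, where 1.62% of all genes did. They were Oas2, Rtp4 and Irf1. None fell, where 2.55% of all genes did, and 14 of the 37 had an unadjusted p below 0.05, where 18.8% of all genes did. Oas2 was at 12.6 and 8.24 TPM in Pax5 R31Q/- libraries, a log2 fold change of 1.07 ± 0.22 (adjusted p = 0.0368, limma). Rtp4, with the overlap with Masp1 given above, was at 68.8 and 59.1 TPM, a log2 fold change of 0.83 ± 0.16 (adjusted p = 0.0310, limma), and Irf1 rose by 0.60 ± 0.12 (adjusted p = 0.0360, limma). In each of the 3 genes both R31Q/- libraries were above both wild-type ones.

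With all 8 libraries but no filter on low TPM, none of these 3 genes passed. Their adjusted p was then 0.0518 for Irf1, 0.0862 for Oas2 and 0.0586 for Rtp4 (limma). Irf1 was also lost without a variance trend (adjusted p = 0.0617) and Oas2 with a pseudocount of 5 (adjusted p = 0.051, limma). The 3 calls depended on the libraries in the fit as well. None of them passed when the other 2 genotypes were left out of the fit, nor without either Pax5 R31Q/- library, Pax5+/+ library 2 or either Pax5+/- library. With limma-voom on the recovered reads, 5 genes rose, the same 3 and Gbp3 and Ifih1, where 2.33% of all genes did. Gbp3 was at 24.2 and 24.3 TPM in Pax5 R31Q/- libraries and had a log2 fold change of 0.81 (adjusted p = 0.0590, limma). Other genes with separated values that did not pass were Isg15, at 58.1 and 59.1 TPM with a log2 fold change of 0.94, and Ifi44, at 16.5 and 13.0 TPM with 0.94. Both libraries were above both wild-type ones for 18 of the 37 genes (48.6%), against 34.6% of all genes, and below for Stat2, Zbp1, Ifit2 and Isg20. Zbp1 had the lowest log2 fold change at -0.66, from 15.5 and 16.9 TPM to 11.9 and 8.15 TPM (adjusted p = 0.185, limma). Bst2 and Mx1, among the largest rises in Pax5-/- cells, had log2 fold changes of -0.02 and -0.07. In this comparison the plasmacytoid markers Cox6a2 and Spib fell and none of the 12 rose, with a list median of -0.92. Of the 9 myeloid markers tested 0 passed (limma), with a list median of 0.70, and the summed TPM of the 10 listed was 622 and 405 in Pax5+/+ and 1005 and 954 in Pax5 R31Q/- libraries. The median was 0.26 for the 37 genes and 0.04 for all genes. The part of these cell types in the shift was not tested.

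In Pax5+/- compared with Pax5+/+ pro-B cells, 0 of the 37 genes passed in either direction, where 0.0% of all genes rose and 0.0223% fell, or 3 of 13436. At an unadjusted p below 0.05 there were 9 of the 37, where 6.06% of all genes were, and limma-voom on the recovered reads also called 0. The largest log2 fold changes were 0.90 for Ifi44, 0.80 for Isg15 and 0.61 for Oas1a. Ifi44 was at 12.3 and 16.4 TPM in Pax5+/- libraries against 7.49 and 6.82 TPM in Pax5+/+, without overlap (adjusted p = 0.622, limma). Both Pax5+/- libraries were above both wild-type ones for 20 of the 37 genes (54.1%), against 21.1% of all genes, and below for Samhd1. The median was 0.22 for the 37 genes and 0.02 for all genes, and it was 0.60 for the myeloid and -0.40 for the plasmacytoid markers. The Pax5+/-, R31Q/- and -/- comparisons share the same 2 Pax5+/+ libraries. Pax5+/+ library 2 had the lowest summed level of the 8 libraries, and Isg15 and Rsad2 were 2.07-fold and 2.20-fold lower there than in library 1.

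**Figure D4:**
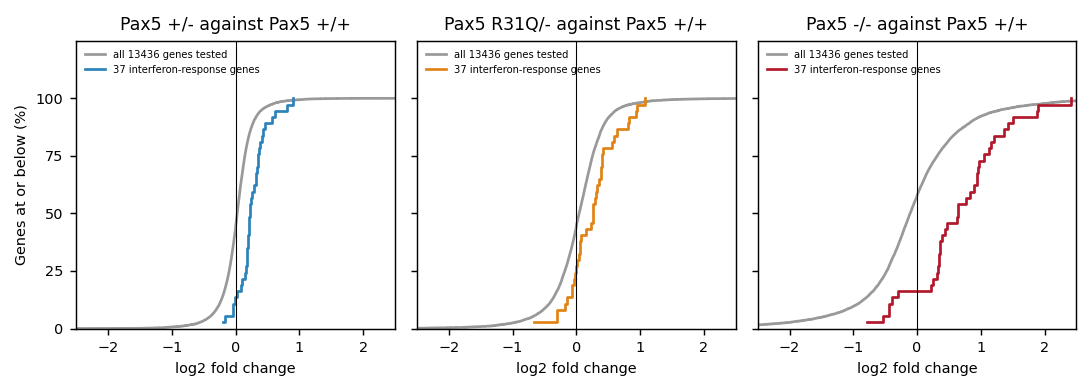
Percentage of genes at or below each log2 fold change against Pax5+/+ for the 37 interferon-response genes and for all 13436 genes tested, in Pax5+/-, Pax5 R31Q/- and Pax5-/- cells. The curve of the 37 genes lies to the right of that of all genes around 0 in the 3 panels, with medians of 0.22, 0.26 and 0.64 against 0.02, 0.04 and -0.11.

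When Pax5 R31Q/- was compared with Pax5-/- cells, 13 of the 37 genes (35.1%) were lower, where 14.7% of all genes were, and 2 were higher, where 19.9% of all genes were. In the same comparison 7 of the 12 plasmacytoid markers were lower and 1 was higher, with a list median of -2.24, and 8 of the 10 pro-B markers were higher. The part of these cell types in the difference was not tested. The lower ones were led by Bst2 at -1.92 ± 0.20 (adjusted p = 0.000479, limma), Mx1 at -1.49 ± 0.19 (adjusted p = 0.00107, limma) and Ifi44 at -1.47 ± 0.30 (adjusted p = 0.00904, limma) on the log2 scale. Irf7, Dhx58, Ifit1, Oasl1, Oasl2, Oas2, Mx2, Igtp, Oas3 and Stat2 followed, between -1.12 for Irf7 and -0.47 for Stat2. The call of Stat2 was lost in 10 of 17 alternative settings, and without Pax5-/- library 2 its log2 fold change was -0.31. Without Pax5 R31Q/- library 2, 5 of the 13 passed, Bst2, Mx1, Irf7, Dhx58 and Igtp, and the adjusted p of the other 8 ranged from 0.0657 for Oasl1 to 0.208 for Stat2 (limma). Rsad2, at 12.3 and 12.2 TPM in Pax5 R31Q/- libraries, was higher by 1.19 ± 0.38 (adjusted p = 0.0446, limma) and Trim30a by 0.79 ± 0.25 (adjusted p = 0.0434, limma). The call of Rsad2 was lost in 8 of 17 alternative settings and that of Trim30a in 10. Among these settings, both calls were lost without either Pax5 R31Q/- library or without Pax5-/- library 1. Without that library Trim30a was higher by 0.35, since its level was 30.7 TPM there and 56.9 TPM in library 2. For Irf1, Parp9 and Parp14 the fold changes were -0.03, -0.01 and 0.04. When Pax5 R31Q/- was compared with Pax5+/- pro-B cells, 0 of the 37 genes passed in either direction, where 0.268% of all genes were higher and 0.350% lower. Oas2 had the largest log2 fold change, 0.64 (adjusted p = 0.390, limma), and Zbp1 the lowest, -0.62 (adjusted p = 0.467, limma). At an unadjusted p below 0.05 there were 3 of the 37 genes, where 8.79% of all genes were, and limma-voom called 0.

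Pax5 peaks lay within 1 kb of a start site for 17 of the 37 genes (45.9%) in the Rag2-/- list, where 68.2% of the 13102 tested genes with an annotated start site had a peak. In the Pax5 R31Q/- list it was 16 of the 37 (43.2%), where 73.2% of tested genes had a peak. Of the 17 genes, 2 (11.8%) had a peak that no R31Q/- peak overlapped by at least 1 base, where 4.02% of such genes did, and these 2 were Ifih1 and Eif2ak2. The peak of Ifih1, a sensor gene, was 295 bp wide and reached from 59 bases before to 235 bases after its start site. That of Eif2ak2 was 329 bp wide, from 199 bases before to 129 bases after. Isg20 had 2 peaks in the R31Q/- list and none in the Rag2-/- list. The lists come from 1 library each and hold positions only, 41983 and 18821 peaks, so no replicate check exists and peak height was not compared.

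Of the 20 genes that rose in Pax5-/- cells, 8 had a peak in the Rag2-/- list and 12 did not, where 68.2% of all tested genes had one. The 8 were Irf1, Ifih1, Oasl1, Samhd1, Bst2, Dtx3l, Igtp and Gbp3. The 12 without a peak in this window were Irf7, Dhx58, Oas1a, Oas2, Oas3, Oasl2, Ifit1, Mx1, Mx2, Isg15, Ifi44 and Rtp4. Among the 16 genes that did not pass, 9 had a peak. The share with a peak among all genes that rose, or that did not pass, was not determined. The counts by call are therefore a description only. The Bst2 peak, at chr8:71537367-71537651, covered the whole Bst2 stretch printed above, and the Igtp peak, at chr11:58199432-58199688, covered the Igtp stretch. Of the 12 genes with an ISRE core before the start site, these 2 and Stat2 had it inside a Pax5 peak, in both lists. The core of Ifih1 began 32 bases and that of Eif2ak2 18 bases after the start site. Both cores lay inside the Rag2-/- peaks of these genes, which no R31Q/- peak overlapped. A core just after another start site of Trim30a lay inside a peak in both lists. The peaks assigned to Dtx3l and Parp9 are the same ones, because these genes start within 1 kb of each other.

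**Figure D5:**
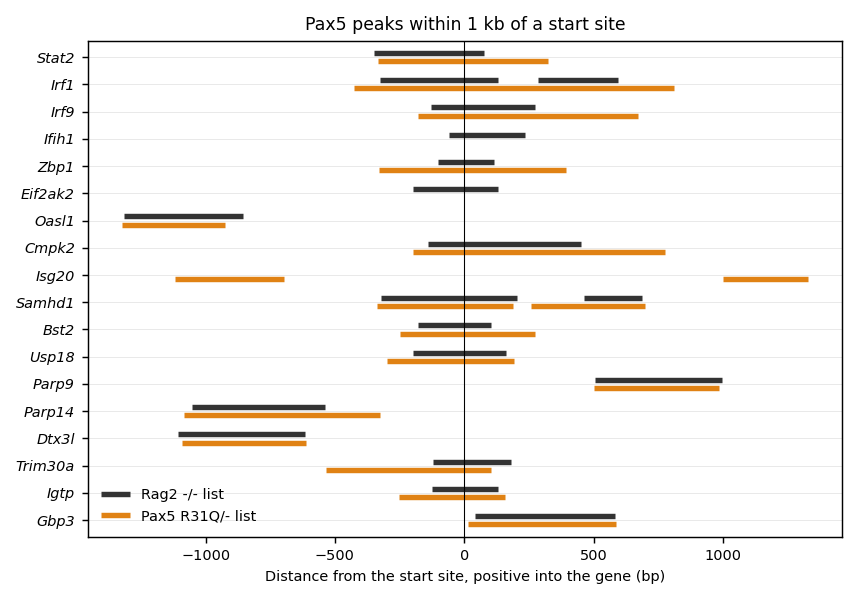
Extent of each Pax5 peak within 1 kb of a start site, for the 18 interferon-response genes that have one, as distance in bp from the start site with positive values into the gene. Black bars are peaks of the Rag2-/- list and orange bars those of the Pax5 R31Q/- list: Ifih1 and Eif2ak2 have a black bar only and Isg20 orange bars only.

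Genes that act upstream of the response were examined as 3 lists. Of 11 interferon ligand genes, 7 were at 0 TPM in all 8 libraries and all 11 were under 1 TPM in each, so no ligand entered the test. Of 16 genes of the receptors and the JAK-STAT pathway, 4 rose and 3 fell in Pax5-/- cells, where 16.2% and 19.7% of all genes did, and the list median was 0.07. Those that rose included Ifngr1, the ligand-binding chain of the interferon-gamma receptor, at 1.72, Ifnar2 at 0.87 and Ifnar1 at 0.73 on the log2 scale. Pias1, Ptpn2 and Ifngr2 fell. Ifngr2, another chain of the interferon-gamma receptor, was at 105 and 110 TPM in Pax5+/+ and at 83.4 and 82.5 TPM in Pax5-/- libraries. Ifngr1 also rose in Pax5 R31Q/- cells, by 0.88 (adjusted p = 0.0150, limma), from 78.3 and 60.9 TPM to 128 and 128 TPM, and it was the only 1 of the 16 that passed there. Of 18 genes tested from the pathway that induces interferon, 7 rose and 2 fell in Pax5-/- cells with a list median of 0.36, led by Tlr7, an endosomal RNA sensor that plasmacytoid dendritic cells also express, at 3.09. In Pax5 R31Q/- cells 2 of the 18 rose, where 1.62% of all genes did. They were Cgas, the cytosolic DNA sensor, from 2.71 and 2.53 TPM to 10.7 and 11.6 TPM (log2 fold change 1.74, adjusted p = 0.00184, limma), and its adaptor Tmem173 (STING), from 57.1 and 76.4 TPM to 146 and 127 TPM (1.04, adjusted p = 0.0109, limma). In Pax5+/- cells 0 genes of these lists passed in limma.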

How the data were processed

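RNA-seq was performed on 8 libraries of 4 genotypes and Pax5 ChIP-seq on 2 libraries. Per the labels, reads were processed with STAR 2.4.2, Bowtie2 2.3.5.1, SAMtools 1.9 and Picard 2.18.27 on mm10 (GRCm38.p3), and peaks were called with MACS. The deposited RNA-seq values are TPM computed by the authors from uniquely mapping reads, and whether strand was used is not given in the sources used here. The deposited peak lists hold start and end positions, with a score of 0 throughout that was not used. The authors tested read counts with DESeq2, but those counts were not used here. Genotypes were taken from the labels, and the numbers 1 and 2 only name the libraries of a genotype. The ChIP-seq control label gives only Rag2-/-, and the description of the other ChIP-seq library writes Rag2(R31Q/-) where its genotype field gives Pax5(R31Q/-), which was followed.

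Genes with at least 1 TPM in at least 1 library (13436) entered a linear model of log2(TPM + 1) (limma 3.58.1, R 4.3.3), with eBayes and a variance trend, in 1 fit of all 8 libraries, with Benjamini-Hochberg adjustment across these genes in each of 5 comparisons. Fold changes on this scale understate those of low genes. Whole numbers of reads were recovered for all 17371 genes above 0 in at least 3 libraries, within a relative tolerance of 1e-06. A factor that the reads of a gene share in all 8 libraries cannot be recovered, so reads and depth can be understated. The recovered reads were used for depth and for limma-voom. An exact permutation test of 2 against 2 libraries cannot give a p below 0.333 and was not run. Replicates differed by more than counting noise. Spearman's correlation across genes was between 0.962 and 0.975 within genotypes. Peaks were matched to RefSeq start sites of GRCm38.p6. The fits were tested on simulated data. The 37 genes and all lists were chosen with earlier results of these data known. Full statistics are given by rule for genes that passed, up to 10 of the largest per comparison, values in every library for the 5 most abundant genes, and fold changes for up to 3 genes of each other list. The remaining members were described more briefly so that each role is covered, and which of them were given library values or statistics, such as Igtp, was chosen after their values were seen. Some genes of the marker and pathway lists are not reported here. Alternatives varied the pseudocount, filter, scaling, libraries, trend, thresholds and peak rules.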

Additional observations from a re-analysis of the deposited data

How the results depend on the processing

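No paired analysis was possible because the labels carry no replicate numbers shared between genotypes. Over 17 alternatives, the 39 calls of single genes kept their direction in all 663 values and lost significance in 109. The cause was not tested, other than that some alternatives had fewer libraries. Where a genotype was left with 1 library, that library was assumed to vary like the other genotypes. For Pax5 R31Q/- against Pax5+/+, the number of genes that rose was 5 with limma-voom (chosen after seeing the data), 0 without a filter, 0 with only the 2 genotypes, 0 with the 3-fold and 5 TPM limits, whether the fold was taken on TPM + 1 or as the ratio of mean TPM (the latter chosen after seeing the data), and 0 to 4 when 1 library was left out. For Pax5-/- against Pax5+/+, 3 genes rose with those limits on TPM + 1 and 4 on the ratio, 14 with only the 2 genotypes (8.25% of all genes), 28 with median-ratio scaling (19.6%) or quantile normalization (20.2%), and 16 to 20 without 1 library. The single fall became 0 with limma-voom, median-ratio scaling, quantile normalization, only the 2 genotypes or either fold limit, and 0 to 1 without 1 library. For Pax5 R31Q/- against Pax5-/-, the higher genes numbered 1 without a variance trend, with median-ratio scaling, quantile normalization, only the 2 genotypes or a pseudocount of 5, 0 without a filter or with either fold limit, and 0 to 1 without 1 library. The lower genes numbered 6 with only the 2 genotypes (10.6% of all genes), 1 with the fold limit on TPM + 1 (Bst2) and 3 with that on the ratio (Mx1 and Ifi44 besides), and 5 (without Pax5 R31Q/- library 2) to 12 without 1 library. The median of all genes in that comparison was 0.13, and 0.01 under median-ratio scaling. Peaks of at least 400 bp were near 10 of the 37 genes in the Rag2-/- list (27.0%, against 54.3% of all genes), 0 of which lacked an R31Q/- peak, against 1.42% of all genes with a peak. With a reciprocal overlap of 50%, 6 of 17 lacked one (35.3%), against 15.8%.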

Other observations

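Interferon-induced genes outside the 37 were followed as 2 lists. Of 13 genes of antigen presentation, 10 rose in Pax5-/- cells and none fell, where 16.2% of all genes rose and 19.7% fell. The rises were led by Nlrc5, the activator of MHC class I genes, at 1.46 on the log2 scale. The peptide transporter Tap1 at 0.93 and the proteasome activator Psme2 at 0.82 followed (limma, each adjusted p below 0.05). Nlrc5 was at 32.9 and 29.9 TPM in Pax5+/+, 50.5 and 58.0 in Pax5+/-, 60.1 and 54.9 in Pax5 R31Q/- and 84.8 and 91.0 in Pax5-/- libraries. It was the only 1 of the 13 that rose in Pax5 R31Q/- cells, by 0.85 (adjusted p = 0.0109, limma), where 1.62% of all genes rose.

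Of 42 other interferon-induced genes, 18 rose and 4 fell in Pax5-/- cells, where 16.2% of all genes rose and 19.7% fell. Ifitm1, a membrane protein that restricts virus entry, rose by 6.14, from 6.32 and 6.34 TPM to 651 and 408 TPM, Ly6a (Sca-1), which also marks early hematopoietic progenitors, by 4.04, and Lgals3bp, a secreted galectin ligand, by 2.25. Ifit1bl1 and Gbp9 fell by 1.74 and 1.65. In Pax5 R31Q/- cells Gbp5, Parp12 and Gbp7 rose by 0.77, 0.68 and 0.62 and none of the 42 fell. Of all genes, 1.62% rose and 2.55% fell there. For Pax5+/- cells 0 genes of either list passed in limma. Among the markers of other cells in Pax5-/- cells, 1 of 9 myeloid markers tested rose (Csf1r, 1.30), 2 of 7 T and NK cell markers rose and 2 fell, and 2 of 4 erythroid markers fell. Of 10 pro-B markers 7 fell and Dntt rose.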
